A study of Prunus sibirica with 6 samples.

Results

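The dehydrins described here are 4 genes of the 31889 in a table of flower gene expression of Prunus sibirica, the Siberian apricot. They were chosen by gene identifier: the abundant gene PARG07069 of linkage group 2, and PARG27268, PARG27269 and PARG27271, which neighbour each other on linkage group 8. The table carries no protein name for any of them, and what marks them as dehydrins is the Pfam dehydrin domain in their descriptions. That domain stands in 6 descriptions in all, so the 4 genes are most of the annotated family but not the whole of it. RNA was sequenced from floral organs of 2 clones at bloom that had been under natural frost at -4 °C. Clone 338, with strong frost resistance, and clone 28, with weak frost resistance, gave 3 libraries each. Every flower had been frosted and no unfrosted flower was analysed here, so the values compare frosted clones and do not show a response to cold. Each kind of resistance is a single clone, so resistance cannot be told apart from any other difference between these trees. The labels do not state whether the 3 libraries per clone are separate trees, so a p-value here speaks of the spread among these libraries alone, and that spread may be technical.

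Dehydrins are hydrophilic, largely unfolded proteins of the late embryogenesis abundant (LEA) class, marked by a lysine-rich repeat called the K-segment. They accumulate in plant cells that lose free water, as in drought, in freezing, in ripening seeds and in pollen, where they are thought to shield membranes and enzymes. In Arabidopsis many of them are switched on by abscisic acid through ABF-type bZIP factors and by cold through CBF (DREB1) factors, so both routes were also read in these flowers.

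The libraries held 16367632 to 18866306 reads in genes. Library 3 of the weak clone was closer to the other clone than to its own. Its log2 profile correlated at Pearson r of 0.895 to 0.925 with the strong libraries and at 0.849 and 0.861 with weak libraries 1 and 2 (across genes, which are no replicates). The dehydrins and the counts of the gene lists are therefore also given without it, while other genes are given with all 6 libraries. Of 37 such genes named by rule and tested, 13 passed with all libraries and again without it, 18 passed only without it, and 1 changed sign. From each list the rule takes up to 3 genes that had already passed, so the 13 are in part fixed by the rule. Of all tested genes, 15.3% passed with all libraries and 73.4% without weak library 3, so these counts do not measure robustness. Markers of other tissues were read beside the dehydrins. LAT52 (PARG10934), a pollen protein gene first described in tomato anthers, was at 1439, 2618 and 1059 FPKM in strong libraries 1, 2 and 3, against 8917, 7714 and 2391 FPKM in weak libraries 1, 2 and 3. The unit, FPKM, counts sequenced fragments relative to gene length and a scale per library, and is used as the authors gave it. That scale did not follow the reads in genes, which were similar. At 1 kb, 1 read was worth 0.0439, 0.0514 and 0.0372 FPKM in strong libraries 1, 2 and 3. In weak libraries 1, 2 and 3 it was worth 0.0965, 0.0921 and 0.0481 FPKM. The 143 genes with pollen or anther words in their descriptions, of which 24 had no read in any library, summed to 9447 to 18530 FPKM in the strong clone and to 16741, 46764 and 53072 FPKM in weak libraries 3, 2 and 1. The 56 markers of green parts, 5 of them without a read, summed to 5758 to 6674 FPKM in the strong and 3924 to 4212 FPKM in the weak libraries. These words also take in early light-induced protein genes, of which PARG03490 is among the calls lower in the strong clone. The most abundant gene of the list, PARG03488, is of that kind and ran against the sum. It was at 261, 364 and 180 FPKM in the strong and 1517, 1103 and 430 FPKM in the weak libraries. The 27 pistil markers, 16 of them without a read, summed to 21.0 to 64.4 FPKM in the strong and 31.3 to 90.9 FPKM in the weak libraries. By limma 1 pollen marker was higher and 10 were lower of 79 tested (13.9%, against 15.3% of all tested genes), 18 green-part markers were higher and 3 lower of 46 (45.7%), and 2 pistil markers were lower of 5. In whole flowers, fewer cells of a type and less RNA per cell cannot be told apart.

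A single dehydrin of the 4, PARG27271, was higher in the frost-resistant clone past the threshold of the test, while the others had lower mean levels there and did not pass it. PARG27271 (linkage group 8, 15858598 to 15859579, plus strand) averaged 122 ± 23.5 FPKM in the strong clone and 23.4 ± 7.23 FPKM in the weak clone (SD, n = 3 each), a ratio of 5.21. By library it was at 98.9, 121 and 146 FPKM in strong libraries 1, 2 and 3, against 31.6, 17.8 and 20.9 FPKM in weak libraries 1, 2 and 3. The clones did not overlap, and weak library 3 lay among its own group in this gene. The lowest value, 17.8 FPKM, rested on 127 reads (95% exact Poisson interval 14.8 to 21.2 FPKM, for counting error only), so counting error is small beside the difference.

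On the log2(FPKM + 1) scale PARG27271 differed by 2.36 ± 0.28 (SE, strong minus weak, 95% interval 1.69 to 3.02, limma adjusted p = 0.00771 over 16462 tested genes). Of all tested genes, 15.3% passed this threshold (adjusted p below 0.05), 7.53% higher and 7.78% lower in the strong clone, so a call of 1 in 4 dehydrins is no result about the family. Within the table, 2.45% of tested genes had a larger difference than PARG27271. Without weak library 3 the gene differed by 2.30 ± 0.28 (adjusted p = 0.000707), and 73.4% of all genes passed that fit, which makes the call there common.

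PARG07069 (linkage group 2, 28061632 to 28088772, plus strand) was the most abundant dehydrin in every library, ranking between place 42 and place 100 among all genes. It was at 648, 673 and 756 FPKM in strong libraries 1, 2 and 3, and at 2699, 2146 and 942 FPKM in weak libraries 1, 2 and 3. The strong libraries lay close together, with a coefficient of variation of 8.17%, while the weak ones spread over 2.86-fold (coefficient of variation 46.6%). No strong library reached the lowest weak one on the deposited scale, in a table where 45.4% of tested genes have clones that do not overlap. As a share of all FPKM in a library the clones overlapped, with 0.1629% in strong library 3 and 0.1624% in weak library 3. The means were 692 ± 56.6 FPKM in the strong clone and 1929 ± 898 FPKM in the weak clone (SD, n = 3 each), a ratio of 0.359. The fitted difference of -1.35 ± 0.56 did not pass the test (95% interval -2.69 to -0.00, limma adjusted p = 0.108). Without weak library 3 it was -1.80 ± 0.35 and passed (adjusted p = 0.00394), and with quantile scaling its sign turned, to 0.12 ± 0.33 (adjusted p = 0.776).

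PARG27268 (linkage group 8, 15853741 to 15854631, plus strand) was the least abundant of the 4 in the strong clone. It was at 9.16, 11.5 and 7.77 FPKM in strong libraries 1, 2 and 3, and at 32.4, 28.9 and 12.9 FPKM in weak libraries 1, 2 and 3. The clones did not overlap here either, although weak library 3, at 239 reads, was near the strong libraries. The difference of -1.21 ± 0.37 did not pass (limma adjusted p = 0.0644). It was -1.61 ± 0.18 (adjusted p = 0.000548) without weak library 3.

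PARG27269 (linkage group 8, 15856051 to 15885489, plus strand) was the only member whose clones overlapped on the deposited scale. On that scale 45.4% of all tested genes have clones that do not overlap, and by share of all FPKM PARG07069 overlapped as well. PARG27269 was at 21.6, 22.1 and 40.5 FPKM in strong libraries 1, 2 and 3, against 54.5, 84.9 and 30.2 FPKM in weak libraries 1, 2 and 3. Strong library 3 was above weak library 3. The difference of -0.93 ± 0.43 did not pass the test (95% interval -1.96 to 0.10, limma adjusted p = 0.134), and without weak library 3 it was -1.31 ± 0.33 (adjusted p = 0.0109).

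**Figure D1:**
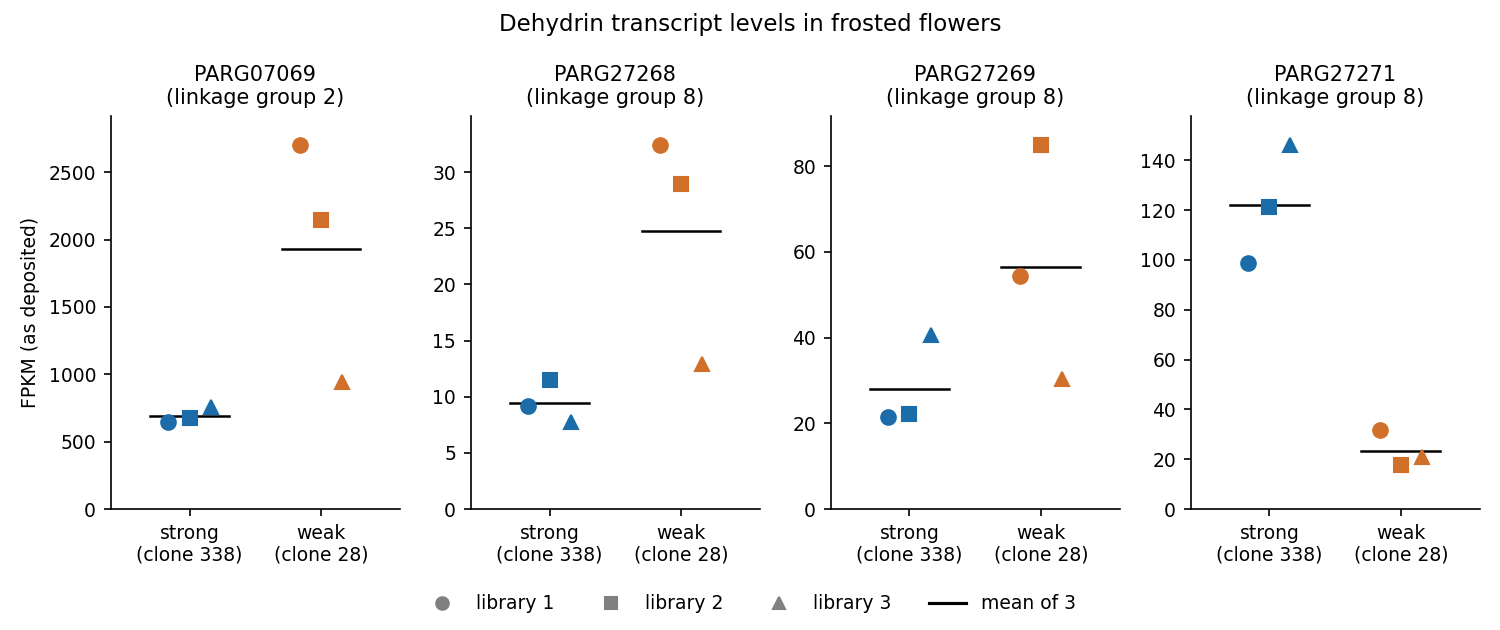
Transcript level (FPKM as deposited, linear axes from 0) of each dehydrin in the 3 strong and the 3 weak libraries; points are libraries and lines the mean of 3. PARG27271 was at 98.9 to 146 FPKM in the strong and 17.8 to 31.6 FPKM in the weak libraries, and in the other genes weak library 3 lies nearest to the strong libraries.

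On the deposited scale, weak library 3 stood apart from the rest of its clone in the 3 dehydrins with lower means in the strong clone. It was at 0.389 times the mean of weak libraries 1 and 2 in PARG07069, at 0.421 times in PARG27268 and at 0.434 times in PARG27269, but at 0.845 times in PARG27271. These ratios include the scaling, by which 1 read at 1 kb was worth 0.0481 FPKM in weak library 3. In weak libraries 1 and 2 it was worth 0.0965 and 0.0921 FPKM. In reads of weak libraries 1, 2 and 3, PARG07069 had 23413, 19504 and 16401 and PARG27268 had 299, 280 and 239. PARG27269 had 855, 1396 and 953 reads there, and PARG27271 had 215, 127 and 285. Set against weak library 3 alone, the strong mean was 0.735, 0.734 and 0.928 times as high in PARG07069, PARG27268 and PARG27269, against 5.85 times in PARG27271. On the deposited scale the contrast of PARG27271 is thus as large against that library as against the group, and those of the others are not. As a share of all FPKM, PARG27271 was at 0.00259%, 0.00161% and 0.00359% in weak libraries 1, 2 and 3. Its mean share was 0.0239% in the strong and 0.00260% in the weak clone. By share, its contrast is thus smaller against weak library 3 than against the group. LAT52 moved across the weak libraries in the same order as PARG07069 and PARG27268, which is also the order of the FPKM that 1 read was worth there. In the strong libraries LAT52 was lowest in library 3, where PARG07069 was highest, while PARG27268 kept the order of LAT52. The part of pollen RNA in these levels was not tested. Relative to LAT52 in the same library, PARG07069 stood at 0.450, 0.257 and 0.714 in strong libraries 1, 2 and 3 and at 0.303, 0.278 and 0.394 in weak libraries 1, 2 and 3, so these ratios overlapped. The same ratio for PARG27271 was 0.0463 to 0.138 in the strong clone and 0.00231 to 0.00873 in the weak clone, with no overlap.

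The deposited values are scaled between libraries, and the summed FPKM ran from 464129 to 591204 in the strong clone and from 580337 to 1217398 in the weak clone. When each library was brought to an equal sum, the median log2 difference of all tested genes moved from 0.05 to 0.76. Under that scaling PARG27271 differed by 3.17 ± 0.34 (limma adjusted p = 0.00425), PARG07069 by -0.51 ± 0.28, PARG27268 by -0.43 ± 0.22 and PARG27269 by -0.11 ± 0.38. The last 3 kept a negative sign and did not pass (adjusted p = 0.159, 0.142 and 0.806), and all 3 values lay below that median of all genes.

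How readily a gene passed varied with the setting. Of all genes tested, 11.5% passed with a pseudocount of 0.1, 9.85% without the filter on low values, 14.1% with equal sums, 19.4% with quantile scaling and 39.1% with the replicate number as a block. Leaving out strong library 1, 2 or 3 left 1.01%, 2.14% and 1.4% of genes past the threshold, and leaving out weak library 1 or 2 left 3.71% and 2.4%. PARG27271 was among the genes that passed in each of these fits, and its largest adjusted p was 0.0497, without strong library 3.

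**Figure D2:**
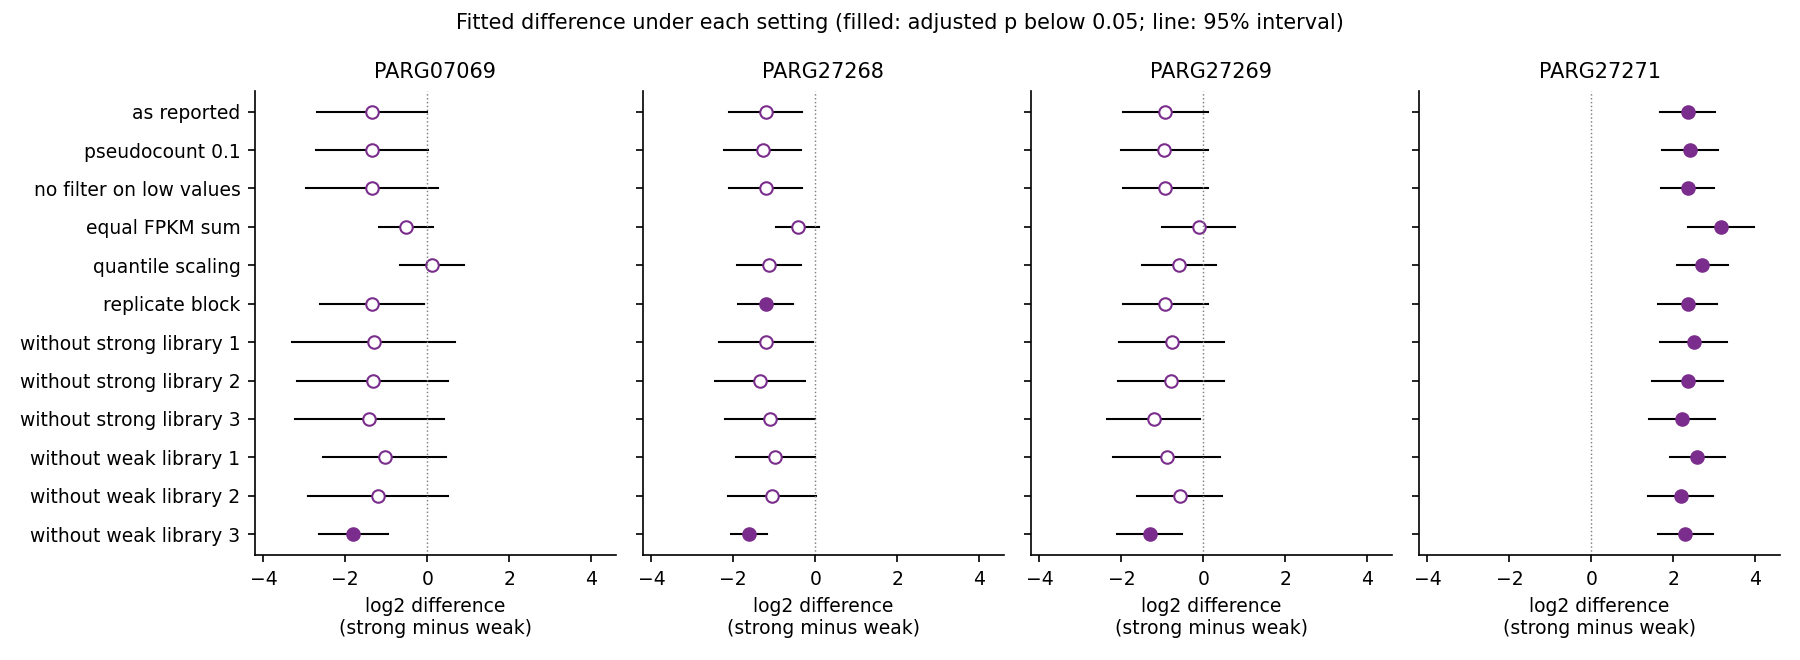
Fitted log2 difference (strong minus weak, log2(FPKM + pseudocount) scale) of each dehydrin as reported and under 11 other settings; lines are 95% intervals and filled points have a limma adjusted p below 0.05. PARG27271 is filled in every setting, from 2.19 to 3.17, and the other genes are filled without weak library 3, with PARG27268 also filled when the replicate number is a block.

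Ratios between dehydrins within a library do not depend on how libraries are scaled to each other. PARG27271 stood at 0.153, 0.180 and 0.193 times the FPKM of PARG07069 in strong libraries 1, 2 and 3, against 0.0117, 0.0083 and 0.0221 times in weak libraries 1, 2 and 3. The highest weak ratio was thus well below the lowest strong one. Of its neighbour PARG27269 it was 4.59, 5.48 and 3.60 times as abundant in the strong libraries, and 0.580, 0.210 and 0.690 times in the weak libraries. The order of these neighbours was therefore opposite in the clones, in 3 of 3 libraries on each side. Against PARG27268 the ratio was 10.8, 10.5 and 18.8 in strong libraries 1, 2 and 3, and 0.975, 0.615 and 1.62 in weak libraries 1, 2 and 3, where it lay on both sides of equal levels.

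On the log2(FPKM + 1) scale the ratio of PARG27271 to PARG07069 differed by 3.70 between the clones, that to PARG27268 by 3.57 and that to PARG27269 by 3.28, strong minus weak. Each of these had an exact permutation p = 0.1, two-sided, the smallest that 3 against 3 allows, and 0.2 when adjusted over the 6 pairs compared. Ratios among the other 3 genes overlapped between the clones. PARG07069 over PARG27268 was 58.6 to 97.3 in the strong and 73.1 to 83.4 in the weak libraries (log2 difference -0.13, exact permutation p = 0.6). PARG07069 over PARG27269 differed by -0.42 (exact permutation p = 0.4) and PARG27269 over PARG27268 by 0.29 (exact permutation p = 0.7), and at n = 3 neither shows that these genes keep a fixed ratio.

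**Figure D3:**
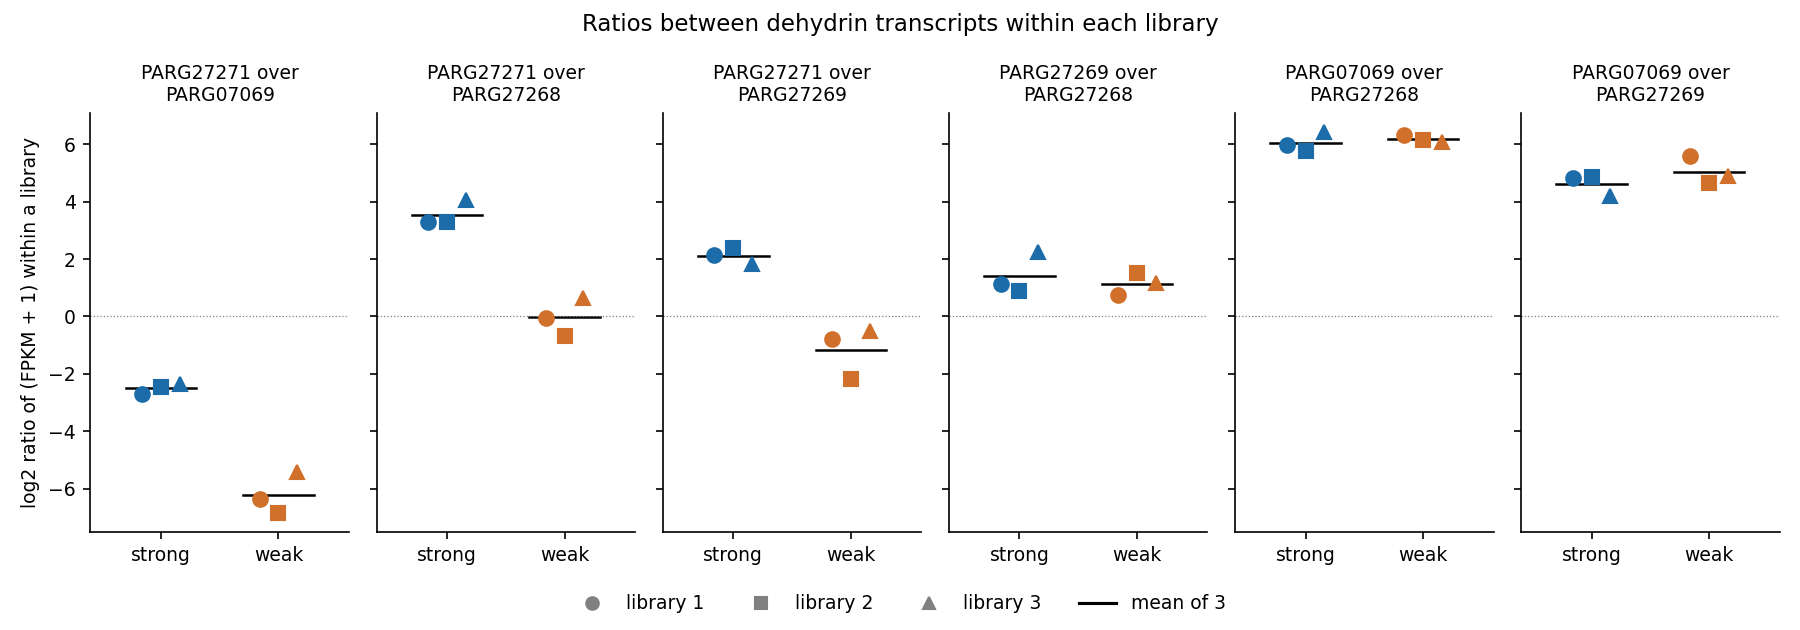
Log2 ratio of (FPKM + 1) between each pair of dehydrins within a library, for the 3 strong and 3 weak libraries; points are libraries, lines the mean of 3 and the dotted line equal levels. The 3 ratios with PARG27271 on top are apart between the clones, by 3.28 to 3.70, and the other 3 overlap.

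The makeup of the dehydrin transcripts followed from this and is given as a description. Of the summed FPKM of the 4 genes, PARG07069 made up 79.6% to 83.3% in the strong libraries and 93.6% to 95.8% in the weak libraries. PARG27271 made up 12.7%, 14.6% and 15.4% in strong libraries 1, 2 and 3, against 1.12%, 0.782% and 2.07% in weak libraries 1, 2 and 3. Both ranges were apart between the clones, and the shares of PARG27268 (0.817% to 1.39% and 1.15% to 1.28%) and PARG27269 (2.67% to 4.27% and 1.93% to 3.73%) were not. The summed level was 777, 828 and 950 FPKM in strong libraries 1, 2 and 3, and 2817, 2278 and 1006 FPKM in weak libraries 1, 2 and 3 and the lowest weak sum lay just above the highest strong one. As a share of all FPKM in a library the sum was 0.155%, 0.140% and 0.205% in strong libraries 1, 2 and 3, against 0.231%, 0.206% and 0.173% in weak libraries 1, 2 and 3, and on this scale the clones overlapped. Within linkage group 8 alone, PARG27271 held 75.1% to 78.3% of the summed FPKM of the 3 genes in the strong libraries and 13.5% to 32.6% in the weak libraries, where PARG27269 led with 46.0% to 64.5%.

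**Figure D4:**
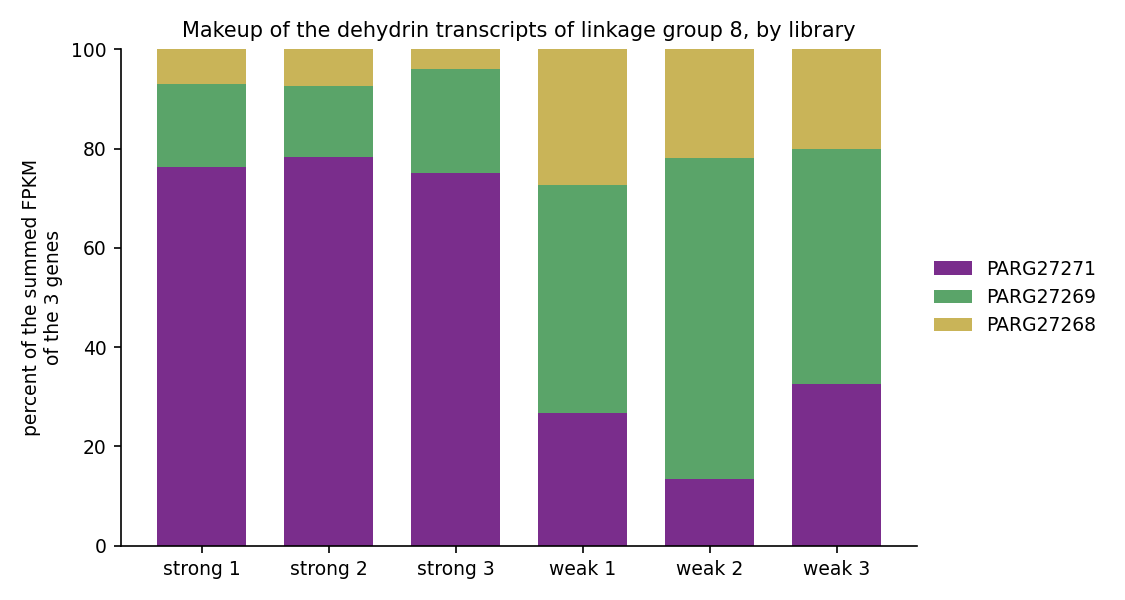
Share of each dehydrin of linkage group 8 in the summed FPKM of the 3 genes, by library (bars add to 100%). PARG27271 holds 75.1% to 78.3% in the strong libraries and 13.5% to 32.6% in the weak libraries.

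The order of the levels, which FPKM allows between genes because it is per length, differed between the clones. In the strong clone it was PARG07069, PARG27271, PARG27269 and PARG27268, and no 2 neighbours in this order overlapped across the 3 libraries. In the weak clone PARG07069 again led, followed by PARG27269 at 56.5 ± 27.4 FPKM, PARG27268 at 24.7 ± 10.4 FPKM and PARG27271 at 23.4 ± 7.23 FPKM (SD, n = 3). The ranges of PARG27269 and PARG27268 overlapped there, as did those of PARG27268 and PARG27271. Within weak library 3 PARG27271 was above PARG27268, and in weak libraries 1 and 2 it was below.

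The dehydrins of linkage group 8 form a tandem group in which gene models overlap, and this bears on how reads were shared between them. From the start of PARG27268 to the end of PARG27271 the group covers 5839 bases. PARG27269 starts 2310 bases after PARG27268 and its model runs for 29439 bases, although its gene length is 1515 bases, 5.15% of that span. PARG27270, a further dehydrin gene on the minus strand (15856363 to 15857388), PARG27271 and 5 other genes lie wholly within it. PARG27270 was listed at 0 in all 6 libraries. PARG07069 has a like model, with a gene length of 837 bases in a span of 27141 bases that holds 7 other genes. Spans of this size occur in 0.976% of the 29706 genes on linkage groups, whose median span is 2444 bases. How the counting treated reads in overlapping models or reads common to these related genes is not given in the sources used here, so the split between PARG27269 and PARG27271 is uncertain. Differences in sequence or gene copies between the clones would also change these values and cannot be told apart from expression.

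**Figure D5:**
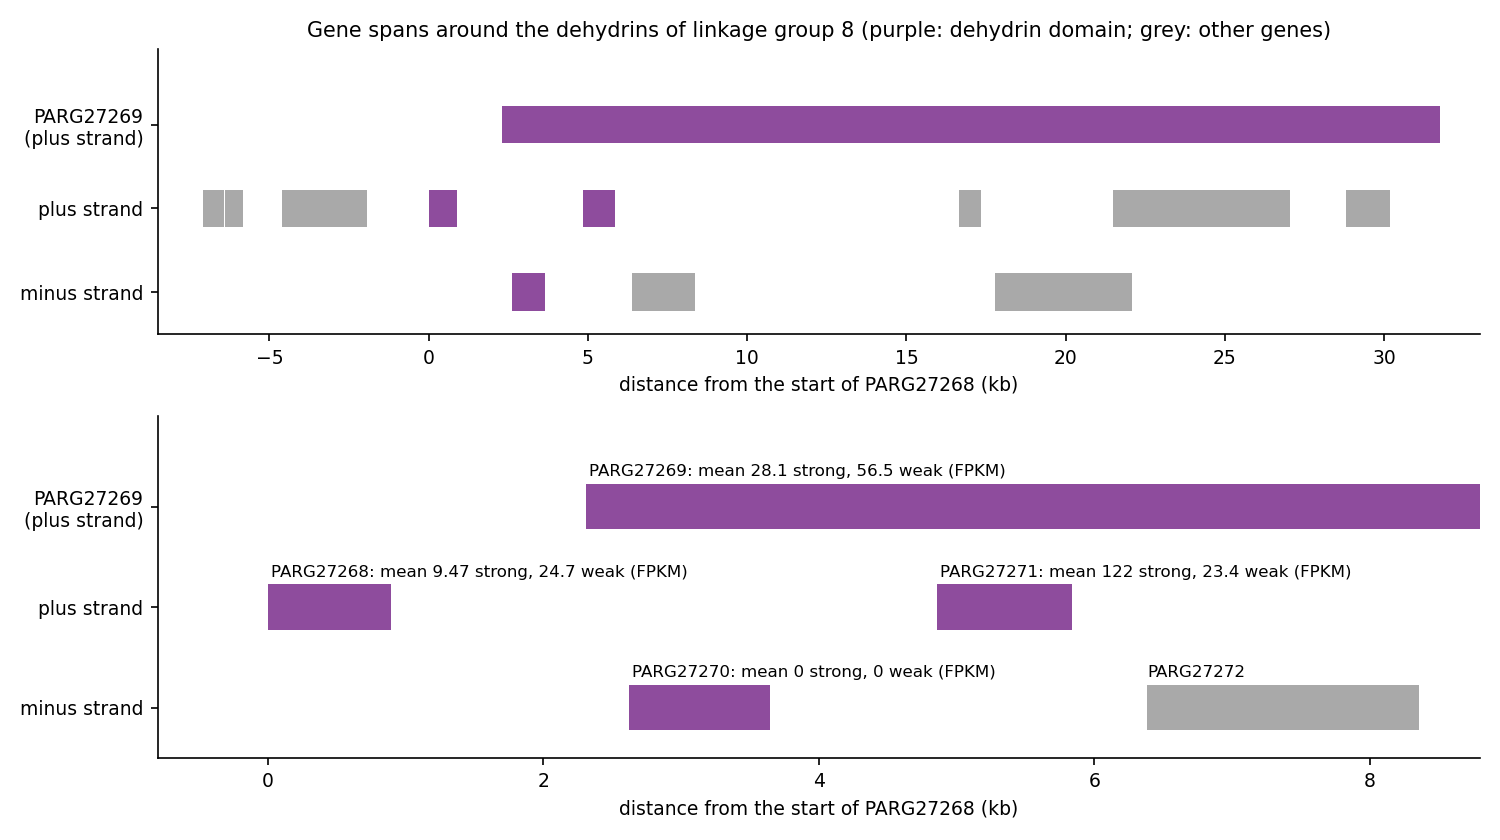
Spans of the genes around the dehydrins of linkage group 8 by distance from the start of PARG27268 in kb, with the dehydrin group enlarged below; rows are strands and PARG27269 has a row of its own. Purple genes carry the dehydrin domain, and PARG27271 and PARG27270 lie inside the 29439-base span of PARG27269.

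Genes beside the dehydrins did not share a single direction. Next to PARG27271, the pentatricopeptide repeat gene PARG27272, of a family that acts on organelle RNA, was at 3.43 to 4.22 FPKM in the strong and 0.634 to 3.16 FPKM in the weak libraries (0.94 ± 0.36, limma adjusted p = 0.0909). The difference was 0.18 ± 0.22 for PARG27273, without description, and 0.20 ± 0.25 for PARG27274, similar to the glycosyltransferase alg-2 (adjusted p = 0.524 and 0.536). On the other side, the kinesin KIN-10A gene PARG27266 differed by 1.04 ± 0.30 (adjusted p = 0.0604). The kinesin gene PARG27265 and the gene PARG27267, without description, were too low to be tested. Inside the span of PARG07069, the gene PARG07071 for a subunit of mitochondrial NADH dehydrogenase differed by -0.99 ± 0.34 (adjusted p = 0.0787). The 4-coumarate-CoA ligase-like gene PARG07072 differed by 1.46 ± 0.46 (adjusted p = 0.0683), and PARG07070 was too low to be tested. Before PARG07069 on the linkage group, the difference of the kinase gene PARG07067 was 0.16 ± 0.21 and that of the chloroplast protease gene PARG07068 was -0.11 ± 0.19 (adjusted p = 0.544 and 0.635). Of the 3 genes on each side of a member, PARG07066, of unknown function, and PARG27271 itself passed the test. As 15.3% of all tested genes passed it, these calls are no result about the neighbours. PARG07066 was at 1.16 to 2.56 FPKM in the strong and 0 to 0.555 FPKM in the weak libraries, so it cleared the filter of 1 FPKM only through the strong clone. The same holds for PARG27266.

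The remaining gene with the dehydrin domain lies on linkage group 6. PARG20790 (5783850 to 5784797, plus strand) was at 0.0739, 0.346 and 1.06 FPKM in strong libraries 1, 2 and 3 and at 0, 0.155 and 3.48 FPKM in weak libraries 1, 2 and 3. It had 22 reads in the strong and 44 in the weak clone and was too low to be tested, and its highest value in each clone was in library 3. The word search for dehydrins also matched 5 genes of small GTPases with the alternative name Rab18, which share that name with an Arabidopsis dehydrin but are not dehydrins; 3 of them were tested and did not pass, at adjusted p values of 0.0758 to 0.12.

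The genes whose level over the 6 libraries was most like that of each dehydrin were taken among 11468 tested genes with a mean of at least 5 FPKM. The measure was Pearson's r of log2(FPKM + 1) over the 6 libraries, which fall into 2 clones, and it is a description only. For PARG07069 the first was the BURP domain gene RD22 (PARG10064, r = 0.999), named for a dehydration-responsive gene of Arabidopsis, at 126, 138 and 160 FPKM in the strong and 526, 416 and 196 FPKM in weak libraries 1, 2 and 3. It was followed by a RING finger gene (PARG12698) and a J domain gene (PARG07320), both at r = 0.998. For PARG27268 they were genes similar to EVI5-like protein (PARG13378), an enzyme of phospholipid synthesis that acts on ethanolamine phosphate (PARG02692) and the kinase fray2 (PARG12940), all at an r above 0.999. For PARG27269 the closest were the LysM receptor-like kinase gene PARG13778 (r = 0.993), PARG12143 for a D-tyrosyl-tRNA deacylase (r = 0.986) and PARG23273, similar to the SNARE-binding protein KEULE (r = 0.982). For PARG27271 they were a gene without description at 10.9 ± 2.45 FPKM in the strong and 1.29 ± 0.506 FPKM in the weak clone (SD, n = 3, r = 0.997), PARG29427, also without description (r = 0.995), and the glycosyltransferase gene PARG26836 (r = 0.995).

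Such likeness was common for some members and rarer for others. An r above 0.95 was reached by 3047 genes for PARG27268 and by 1389 for PARG07069, but by 144 for PARG27271 and 32 for PARG27269. The patterns of the first 2 were thus common on the deposited scale, which gives a read more FPKM in weak libraries 1 and 2 than elsewhere. PARG02692, among the genes most like PARG27268, had 2069, 1979 and 2223 reads in strong libraries 1, 2 and 3. In weak libraries 1, 2 and 3 it had 1973, 1959 and 2328 reads. The closest gene, PARG13378, had 1472, 1576 and 1426 reads in the strong and 2450, 2292 and 1870 reads in the weak libraries. PARG12940 had 2089, 2048 and 2108 reads in the strong and 2491, 2369 and 2393 reads in the weak libraries. In reads, PARG13378, PARG12940 and PARG27268 were thus higher in every weak library than in any strong one, unlike PARG02692. The part of the scaling in this likeness was not tested.

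Of 45 tested LEA genes other than dehydrins, the wider group of protective proteins, 4 rose and 2 fell in the strong clone relative to the weak. That is 13.3%, near the 15.3% of all tested genes, and so no result about the group. The list had a median difference of -0.12, against 0.05 over all tested genes. PARG23904, with an LEA domain, was at 15.1, 19.1 and 33.1 FPKM in the strong and 3.98, 5.26 and 3.51 FPKM in the weak libraries (2.10 ± 0.32, limma adjusted p = 0.0134). PARG20115, similar to the seed LEA protein D-34, was at 2.50 to 5.50 FPKM in the strong and 0 to 0.343 FPKM in the weak libraries. In the other direction, PARG18385 was at 0 to 0.453 FPKM in the strong and 2.26 to 6.76 FPKM in the weak libraries. Both are listed among the genes that passed, but each cleared the filter of 1 FPKM only through the clone in which it was high, so the test adds nothing to these levels. The most abundant, PARG19830, similar to the auxin-induced protein ARG2, resembled PARG07069 in its spread, at 1384 ± 289 and 4976 ± 2286 FPKM (SD, n = 3), and did not pass (adjusted p = 0.113). Without weak library 3, 17 of the 45 were higher and 20 lower, in a fit that 73.4% of all genes passed.

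Of 8 genes for cold-regulated membrane and COR proteins, 1 was higher and 0 were lower by limma, with a median of -0.38. Without weak library 3 the counts were 2 and 4. These shares, 12.5% and 75.0%, were near those of all genes, 15.3% and 73.4%. The gene that passed with all 6 libraries was the AWPM-19-like gene PARG03795, of a family of plasma membrane proteins, at 112, 130 and 136 FPKM in the strong and 10.5, 7.80 and 8.50 FPKM in the weak libraries (3.68 ± 0.19, adjusted p = 0.00128). Like PARG27271, it kept weak library 3 within its own group.

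Regulators known to act on dehydrin genes were read next. Of 9 tested CBF and DREB genes, 2 were higher and 0 lower (22.2%, against 15.3% of all genes), and the median was 0.33. They were DREB1D (PARG23731), of the CBF type, at 4.57, 6.17 and 5.85 FPKM in the strong and 0.717, 2.54 and 0.408 FPKM in the weak libraries (adjusted p = 0.0352), and DREB3 (PARG15623), at 3.58 ± 0.47 and 0.511 ± 0.52 FPKM (SD, n = 3, adjusted p = 0.017). In weak libraries 1, 2 and 3, DREB1D had 7, 26 and 8 reads and DREB3 had 3, 3 and 31. Only 1 weak library of each reached 1 FPKM, so both cleared the filter through the strong clone, and their p-values carry that limit. The most abundant of them, DREB2C (PARG19138), of a class linked to drought and heat, differed by 0.05 ± 0.30 (adjusted p = 0.899), and by -0.26 ± 0.14 without weak library 3. With equal sums 4 were higher and 0 lower, 44.4% of the list against 14.1% of all genes, at an all-gene median of 0.76. Without weak library 3 the shares were 33.3% and 73.4%, and with the replicate number as a block 22.2% and 39.1%. These shares are a description and were not tested. Of 10 upstream cold regulators 1 was higher and 0 lower, a share below the 15.3% of all genes, namely CAMTA4 (PARG05795), of the calmodulin-binding activators of CBF genes, at 11.1 ± 1.29 and 2.95 ± 2.39 FPKM (SD, n = 3, adjusted p = 0.0393). The most abundant, the SnRK2-type kinase gene SRK2A (PARG09121), was at 77.8 ± 14.8 and 143 ± 60.4 FPKM (adjusted p = 0.16).

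Of 25 tested abscisic acid receptors and response factors, 7 were higher and 1 lower, a share of 32.0% against 15.3% of all genes, which is a description and was not tested. Not every setting kept this gap. With equal sums the shares were 36.0% of the list and 14.1% of all genes, but with the replicate number as a block they were 40.0% and 39.1%, and without weak library 3 they were 64.0% and 73.4%. The median was 0.32, and 16 of the 25 had a positive difference. Among them the receptor gene described as PYL4 on linkage group 5 (PARG19136) was at 32.1 ± 8.68 FPKM in the strong and 5.43 ± 1.59 FPKM in the weak clone, and the second gene of that name (PARG29278), the most abundant of the list, at 164 ± 18.4 and 45.2 ± 17.0 FPKM (SD, n = 3). An ABI5-like bZIP gene (PARG07789), similar to an ABF factor of Arabidopsis, was at 73.2, 81.7 and 83.2 FPKM in the strong and 37.4, 35.2 and 33.1 FPKM in the weak libraries (1.15 ± 0.18, limma adjusted p = 0.0137). These 3 genes were named for the smallest adjusted p among the calls of the list, and the 1 lower gene is not among them. That their clones do not overlap follows largely from this choice and adds nothing to the calls. Of all tested genes, 23.3% were higher in 3 of 3 strong libraries than in any weak library, PARG27271 among them. The part of the differences in pollen and green-part markers in these counts was not tested.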

How the data were processed

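The authors deposited FPKM values for 6 libraries in a single table of 31889 genes, with positions and descriptions. CASAVA, RSEM and Bowtie2 are named, per the submitters' processing notes, with no role. Versions, genome build and counting rules: not given in the sources used here. Coordinates are as deposited. FPKM times gene length came in whole steps (within 0.01 for 100% of positive values), and these steps gave the reads per gene. No libraries were identical. The filter asked for 1 FPKM or more in 3 or more of 6 libraries. limma 3.58.1 in R 4.3.3 (lmFit, then eBayes with a trend) was run on log2(FPKM + 1), and two-sided p-values were adjusted by Benjamini-Hochberg over all 16462 genes. This scale understates changes of low genes. The fit was tested on simulated data. Ratios between members used exact permutation tests (scipy 1.17.1).

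The named genes were the 4 dehydrins, other matches of the dehydrin words, 3 genes on each side of a member, the 3 genes most like each member in log2 level, and from each list up to 3 genes past the threshold plus the most abundant. LAT52 was taken outside this rule, as a pollen gene named in the marker words. The 6 lists and 3 marker lists were formed by words in the descriptions. Members and lists were chosen with earlier results of these data known. Alternatives covered the pseudocount (0.1), the filter, 2 scalings, a replicate block and leaving out each library.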

Additional observations from a re-analysis of the deposited data

How the results depend on the processing

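PARG27271 kept its sign and an adjusted p below 0.05 under all 11 alternatives (2.19 to 3.17, largest limma adjusted p = 0.0497), with 2.19 to 2.58 when a library was left out. Leaving out a library gave -1.80 to -1.04 for PARG07069, -1.61 to -0.98 for PARG27268 and -1.31 to -0.58 for PARG27269, and each passed only without weak library 3. The calls over all genes went from 2520 to between 166 and 12075 in these fits. Quantile scaling turned PARG07069 to 0.12. Without weak library 3, where 73.4% of all genes passed, lists had these calls, higher then lower: dehydrin domain 1 and 3, other LEA proteins 17 and 20, cold-regulated proteins 2 and 4, CBF and DREB 3 and 0, upstream cold regulators 4 and 2, abscisic acid genes 11 and 5. With equal sums, where 14.1% of all genes passed, 4 CBF and DREB genes (44.4% of the list) and 2 upstream regulators (20.0%) were higher. No abscisic acid gene was lower there. Calls higher in the strong clone made up 67.7% of 2315 calls with equal sums, 49.2% as deposited.

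Whether the replicate numbers of the labels pair the samples is not settled. Same-numbered deviations from the group means correlated at -0.236, 0.588 and 0.605 for libraries 1, 2 and 3. Strong libraries 1 and 3 were most like weak library 3 (0.303 and 0.605), and strong library 2 was most like weak library 1 (0.619). With the replicate block 6439 genes (39.1%) passed, PARG27268 among them at -1.21 (adjusted p = 0.019). The lists then had, higher and lower, 1 and 1 dehydrins, 11 and 14 LEA, 1 and 1 cold-regulated, 3 and 1 upstream and 8 and 2 abscisic acid genes. The ratio of PARG07069 to PARG27268 differed by -0.32 to 0.018 and that of PARG27269 to PARG27268 by -0.12 to 0.56 without single libraries, and the shares of PARG27268 by -0.236 to 0.0492 and of PARG27269 by -0.167 to 0.767 percentage points, so these 4 have no settled sign. The ratios of PARG27271 stayed between 2.77 and 4.09. The cause of these changes was not tested. With 3 libraries per clone the exact tests cannot pass 0.05.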

Other observations

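Further genes around the dehydrins were chosen after their values were seen. Next to the low dehydrin PARG20790 on linkage group 6, an LEA domain gene (PARG20791) was at 24.7, 22.4 and 22.9 FPKM in strong libraries 1, 2 and 3, against 1.18, 0.848 and 17.9 FPKM in weak libraries 1, 2 and 3. Weak library 3 was thus near the strong libraries in this gene too, as it was in PARG07069 and PARG27268, and the difference did not pass the test (2.52 ± 0.86, limma adjusted p = 0.077; without weak library 3, 3.60 ± 0.15 and adjusted p = 5.1e-05). Within the span of PARG27269, the weak libraries 1, 2 and 3 held 13, 9 and 15 reads of peroxidase 72 (PARG27276), and only 1 of them reached 1 FPKM. This gene, of the secreted peroxidases, was at 3.56, 5.49 and 5.37 FPKM in the strong and 1.24, 0.820 and 0.713 FPKM in the weak libraries (1.59 ± 0.23, adjusted p = 0.0127, and 1.51 ± 0.22 without weak library 3). Like PARG27271, it lies on the plus strand inside that model and is higher in the strong clone, while PARG27269 itself is not. The other plus-strand genes inside it, PARG27273 and PARG27275, differed by 0.18 ± 0.22 and -0.32 ± 0.19 (limma adjusted p = 0.524 and 0.207). The plus-strand genes of that span thus shared no direction.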
